A study of Mus musculus with 12 samples.

Results

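The genes described here are 10 genes of glycolysis and of the hypoxia response: the hexokinases Hk1 and Hk2, the phosphofructokinases Pfkl and Pfkp, the pyruvate kinase Pkm, the lactate dehydrogenase subunits Ldha and Ldhb, the hypoxia-inducible factor subunits Hif1a and Epas1, and the growth factor Vegfa. They were taken by gene name from count tables of mouse whole kidney (15361 genes) and of F4/80+ cells isolated from mouse kidney (18145 genes). All 10 were listed in both tables, and all 10 passed the filter on low counts in every comparison. Glycolysis turns glucose into pyruvate in the cytosol, and lactate dehydrogenase converts pyruvate and lactate into each other. When oxygen is scarce, the alpha subunits HIF-1α (from Hif1a) and HIF-2α (from Epas1) escape hydroxylation and degradation, pair with ARNT and switch on genes of glycolysis and of vessel growth such as Vegfa. In the kidney, proximal tubule cells make glucose and rely mainly on oxidative metabolism, distal segments use glycolysis more, and HIF-2α controls erythropoietin in interstitial cells. Macrophages are known to raise glycolysis and HIF-1α when activated by inflammatory stimuli.

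The mice had been made with CRISPR-Cas9 and were homozygous for a coding variant of Sh2b3, the gene of the adaptor protein LNK that restrains cytokine signalling. One genotype, Arg/Arg, carried the major, arginine-encoding allele and the other, Trp/Trp, the minor, tryptophan-encoding allele. Every animal in every group had been infused for 4 weeks with angiotensin II, a hormone used to induce hypertension, and no untreated group was analysed here. Polyadenylated RNA was sequenced from whole kidney and from F4/80+ cells, which were isolated from other kidneys on a Percoll gradient and with anti-F4/80 microbeads, in 4 groups of 3 libraries labelled as biological replicates. The sources used here do not give age, sex, strain, any pooling of animals or the number of edited founder lines. Gene counts do not show which allele a library carries, so the genotype labels were not checked here.

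Kidney libraries held 19586919 to 54686600 counts, of which 7.86 to 9.35% were mitochondrially encoded. F4/80+ libraries held 35883980 to 51603745 counts, of which 70.1 to 83.6% were mitochondrially encoded. Their nuclear protein-coding counts were 6879337 to 11143970, against 17785672 to 49994052 in kidney. Nearly all genes listed for kidney were nuclear protein-coding (15348 of 15361), but fewer of those listed for F4/80+ cells (13845 of 18145). The totals and mitochondrial shares of the 2 sample types are thus over unlike sets of genes. Levels are therefore given as CPM, here the counts of a gene per 1000000 nuclear protein-coding counts of the same library. The F4/80+ libraries were checked against markers of kidney cell types. Summed over the listed macrophage markers, F4/80+ libraries were at 40.5 to 211 CPM (11 of 12 genes listed) and whole kidneys at 140 to 254 CPM (12 of 12). Adgre1, the gene of F4/80 itself, was at 10.8, 1.26 and 2.05 CPM in Arg/Arg and 2.15, 11.5 and 16.7 CPM in Trp/Trp F4/80+ libraries, against 4.11 to 8.32 CPM in kidney. The 12 proximal tubule markers summed to 15172 to 47726 CPM in F4/80+ libraries and to 24853 to 30307 CPM in kidney. The macrophage sums of F4/80+ libraries thus did not rise above the range of whole kidney, and the samples are called F4/80+ preparations below. Single markers went both ways. In the comparison of sample types below, 2 of 11 macrophage markers tested were called higher in F4/80+ libraries, where 26.5% of all genes were. The lower ones were 6, where 37.3% of all genes were. Arg/Arg F4/80+ replicates 2 and 3 stood apart by the highest proximal tubule sums, and Trp/Trp kidney replicate 1 stood apart by its fibroblast markers, at 514 CPM against 244 to 259 CPM in the other kidneys, and its adipocyte markers, at 189 CPM against 75.0 to 95.5 CPM.

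In bulk RNA, fewer cells of a type and less RNA per cell cannot be told apart. Some members share annotated exon sequence with other genes of the mm10 annotation: Hk1 with Hk1os, Pfkp with Pitrm1 and Hif1a with Gm15283 on the opposite strand, and Pkm with Gm49759 and Hif1a with Gm49321 on the same strand. The sources used here do not say whether counting used strand or how reads that match copies of Ldha and Pkm elsewhere in the genome were assigned, so the counts of these genes are uncertain to that extent. Counts per gene do not separate the splice forms of Pkm.

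Ldha and Ldhb were the highest of the 10 genes, and Vegfa is the textbook target of the HIF factors. The sequence upstream of a start of each is therefore shown, with that of the hexokinase gene Hk1. For each gene it is the first window in the table that overlaps none of the gene's annotated exons. Each run is the 250 bases before a RefSeq transcript start in the mouse build GRCm38.p6, read 5′ to 3′ on the gene's strand. Capitals mark ACGTG or GCGTG, the core of the element that HIF binds, searched on both strands, where the other strand reads CACGT or CACGC. The palindrome CACGTG holds the core on each strand and counts as 2 positions.
Ldha, chr7:46845554-46845803, plus strand: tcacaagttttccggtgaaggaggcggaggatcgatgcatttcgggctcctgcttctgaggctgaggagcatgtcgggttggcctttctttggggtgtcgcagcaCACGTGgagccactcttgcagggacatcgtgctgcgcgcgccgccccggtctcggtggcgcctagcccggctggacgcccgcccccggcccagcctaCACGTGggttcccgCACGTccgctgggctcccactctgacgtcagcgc
Ldhb, chr6:142507958-142508207, minus strand: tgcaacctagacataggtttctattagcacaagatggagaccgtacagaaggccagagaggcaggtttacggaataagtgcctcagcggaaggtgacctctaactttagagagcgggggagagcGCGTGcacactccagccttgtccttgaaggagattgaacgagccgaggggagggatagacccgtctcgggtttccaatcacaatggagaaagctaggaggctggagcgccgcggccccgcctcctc
Vegfa, chr17:46032378-46032627, minus strand: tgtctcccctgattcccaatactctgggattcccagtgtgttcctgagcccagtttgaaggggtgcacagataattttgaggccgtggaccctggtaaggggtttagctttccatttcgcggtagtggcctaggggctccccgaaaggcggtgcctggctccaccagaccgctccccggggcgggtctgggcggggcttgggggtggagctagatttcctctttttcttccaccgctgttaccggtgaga
Hk1, chr10:62379909-62380158, minus strand: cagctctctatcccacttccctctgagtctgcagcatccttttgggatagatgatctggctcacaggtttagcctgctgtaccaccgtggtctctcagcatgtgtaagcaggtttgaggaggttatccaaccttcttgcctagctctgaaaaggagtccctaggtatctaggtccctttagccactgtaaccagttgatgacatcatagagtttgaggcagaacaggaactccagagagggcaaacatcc
The Ldha window held 5 core positions, with CACGTG beginning 145 and 48 bases before the start and a further CACGT 34 bases before it. The Ldhb window held 1, beginning 126 bases before the start, and the windows of Vegfa and Hk1 shown here held 0. A further window of Hk1 (chr10:62340422-62340671) held 3, a further one of Vegfa (chr17:46025164-46025413) held 2, and a further one of Ldha (chr7:46846832-46847081) held 1, so the number of cores depended on the start chosen. Of all 32851 mouse windows of this length in the RefSeq table, 38.6% held at least 1 core, 6.58% at least 3 and 6.02% a CACGTG. RefSeq windows were matched for 9 of the 10 members, all but Epas1. Of their 13 windows, 10 held at least 1 core, and each of the 9 genes had a core in at least 1 window. Both windows of Pkm, those of Pfkl and Pfkp, and the further ones of Hk1 and Vegfa overlap annotated exons of their own gene. Some genes have more than 1 window and so more places for a match. The shares over all windows are per window, and none was taken per gene. A match is a description of letters and not evidence of binding, and a window without one says only that the letters are not in it.

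Compared per kilobase of annotated exon (the union over transcripts), Ldhb was the highest of the 10 genes in both sample types. It encodes the lactate dehydrogenase subunit typical of oxidative tissue, and lies on chromosome 6, 142490249 to 142507957 in mm10 (ENSMUSG00000030246.11). In kidney Ldhb was at 903 ± 24.1 CPM per kb and Ldha, the subunit typical of glycolytic tissue (ENSMUSG00000063229.15, chromosome 7, 46841475 to 46855627), at 187 ± 5.54 CPM per kb (SD, n = 6). Pkm, which makes pyruvate in the last step of glycolysis (ENSMUSG00000032294.17, chromosome 9, 59656368 to 59679375), followed at 78.9 ± 5.39 CPM per kb, and Vegfa, the main growth factor for vessels (ENSMUSG00000023951.17, chromosome 17, 46016993 to 46032369), at 74.7 ± 3.00 CPM per kb. These 2 levels overlapped between libraries. Epas1 (ENSMUSG00000024140.10, chromosome 17, 86753700 to 86833410) stood at 34.2 ± 3.68 CPM per kb in kidney, above Hk1, the broadly expressed hexokinase (ENSMUSG00000037012.18, chromosome 10, 62268855 to 62379908), at 23.5 ± 0.769 CPM per kb. Hif1a (ENSMUSG00000021109.13, chromosome 12, 73901375 to 73947530) at 15.8 ± 1.22 CPM per kb and Pfkl, the liver form of phosphofructokinase (ENSMUSG00000020277.10, chromosome 10, 77986947 to 78010083), at 13.3 ± 0.596 CPM per kb overlapped. Pfkp, the platelet form (ENSMUSG00000021196.14, chromosome 13, 6579768 to 6648777), was at 5.87 ± 0.490 CPM per kb. Hk2, the hexokinase that insulin and HIF induce in muscle and tumours (ENSMUSG00000000628.10, chromosome 6, 82725025 to 82774454), was the lowest at 0.302 ± 0.202 CPM per kb. Neighbours in this order other than the 2 pairs named did not overlap in range.

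In F4/80+ preparations Ldhb (1109 ± 205 CPM per kb) and Ldha (256 ± 53.2 CPM per kb) again came first and Hk2 (0.147 ± 0.135 CPM per kb) last (SD, n = 6). Between them Pkm, Vegfa and Epas1, at 63.2 ± 24.5, 51.0 ± 5.68 and 45.4 ± 10.1 CPM per kb, formed a run of neighbours that overlapped. Hif1a, Hk1, Pfkp and Pfkl, at 21.1 ± 7.25, 12.5 ± 5.15, 9.23 ± 3.69 and 7.79 ± 2.02 CPM per kb, formed another. The spread between libraries was wider than in kidney: the SD of the Pkm level was 24.5 against 5.39 CPM per kb. The common biological coefficient of variation was 0.28 over all genes of the F4/80+ fit and 0.101 over those of the kidney fit.

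**Figure D1:**
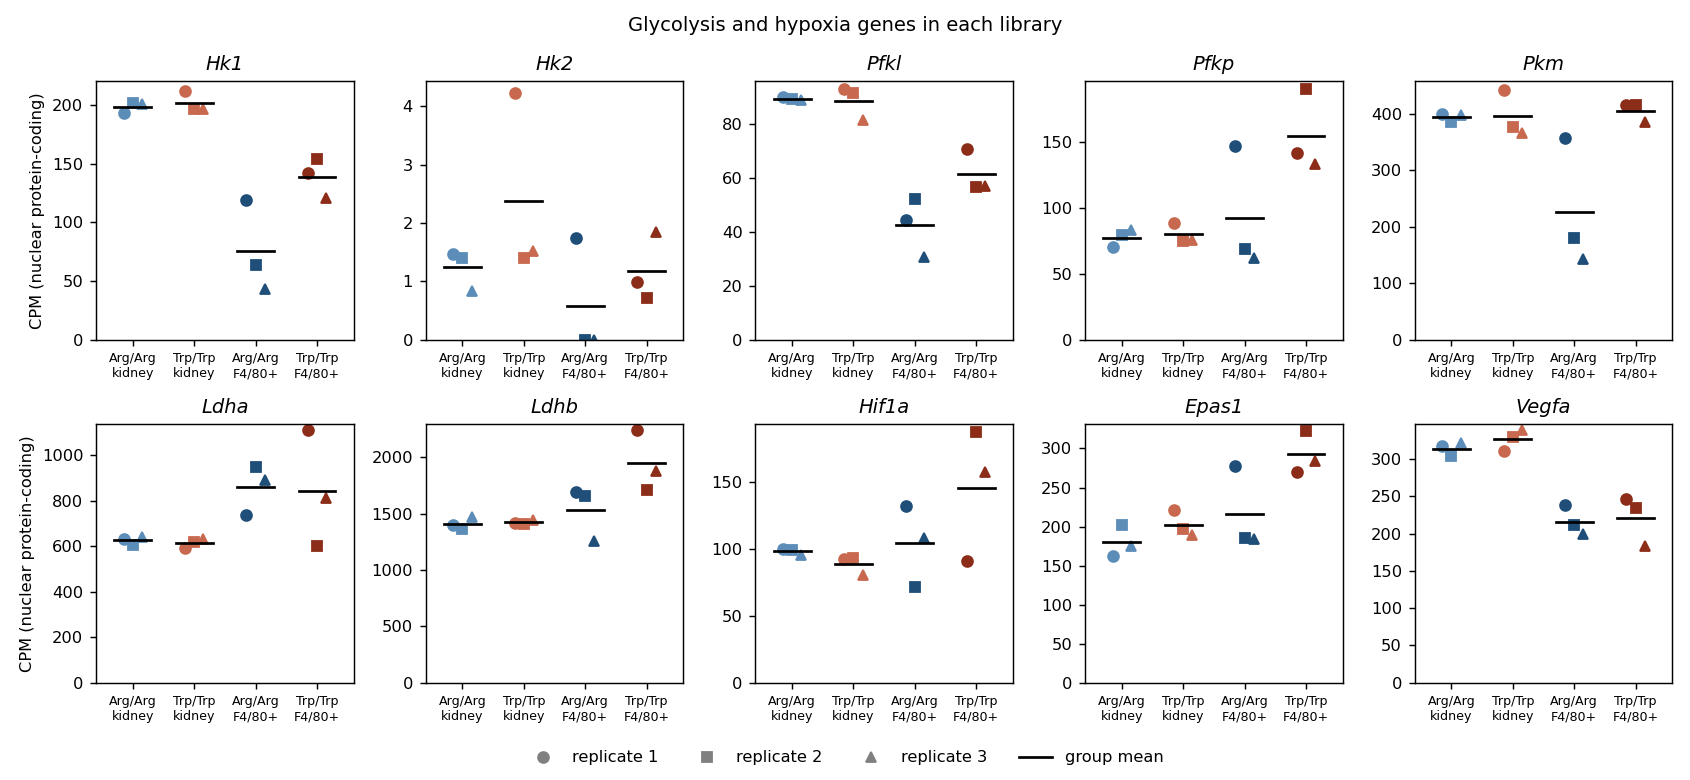
Level of each of the 10 genes in every library, in CPM over nuclear protein-coding counts, by group of 3 libraries, with a horizontal line at each group mean. Kidney libraries lie close together for each gene but Hk2, and F4/80+ libraries are more scattered, with Hk2 at 0 CPM in Arg/Arg replicates 2 and 3.

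The 2 lactate dehydrogenase subunits kept close proportions across kidney libraries and varied more across F4/80+ preparations. Ldhb made up 82.8 ± 0.376% of the summed per-kb level of Ldha and Ldhb in kidney, with a range of 82.4 to 83.5%, and 81.0 ± 3.81% in F4/80+ preparations, with a range of 74.9 to 85.7% (SD, n = 6). Among the phosphofructokinase subunits, which assemble into tetramers, the proportions of Pfkp and Pfkl differed between the sample types. Pfkp made up 13.7 ± 1.16% of the per-kb sum of Pfkl, Pfkp and the muscle form Pfkm in kidney and 22.0 ± 3.83% in F4/80+ preparations, with no overlap of libraries. Pfkl made up 31.0 ± 0.787% in kidney and 19.5 ± 4.08% in F4/80+ preparations, again with no overlap, while Pfkm, at 55.3 ± 1.61% and 58.5 ± 2.93%, overlapped. Hk2 made up 1.25 ± 0.767% of the 2 hexokinases in kidney and 0.97 ± 0.948% in F4/80+ preparations. Epas1 made up 68.2 ± 3.26% of the per-kb sum of Hif1a and Epas1 in kidney and 68.7 ± 4.85% in F4/80+ preparations. No test was run on these shares, which do not depend on library scaling but do depend on the exon lengths used.

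**Figure D2:**
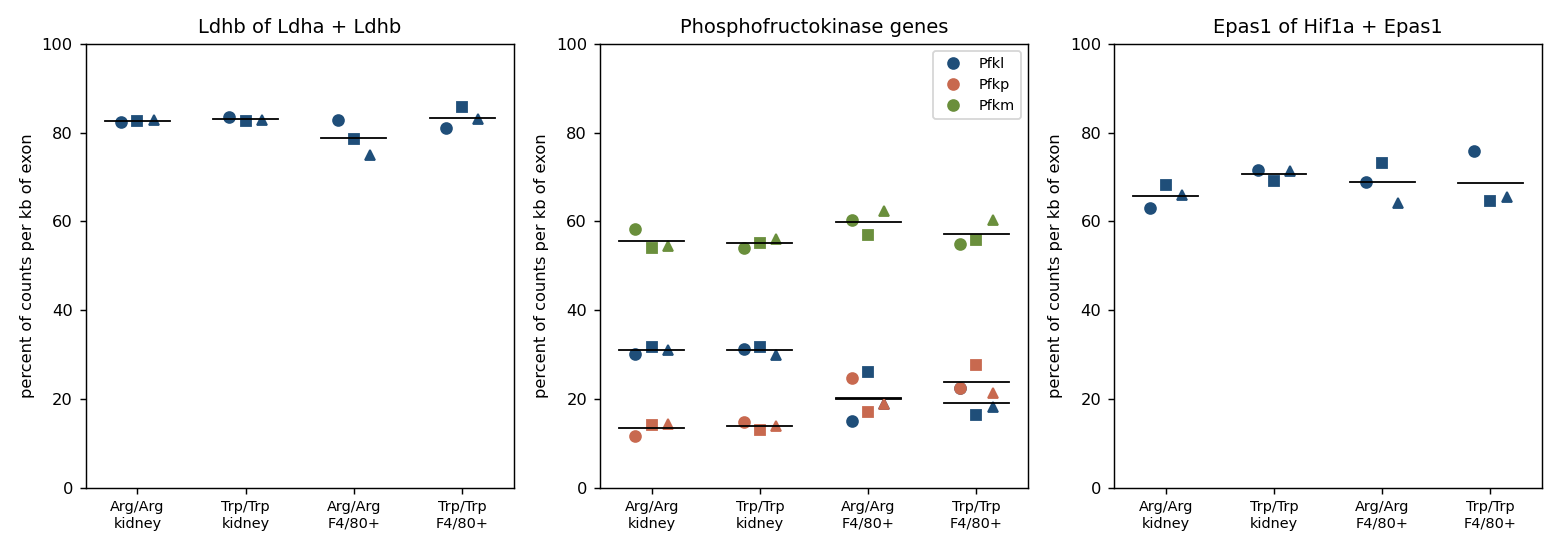
Share of a subunit in the summed per-kb level of its paralogs, in percent, for every library of the 4 groups, with a horizontal line at each group mean. The Pfkp share lies between 11.6 and 14.8% in kidney and between 17.0 and 27.6% in F4/80+ preparations. The Epas1 share is higher in each Trp/Trp than in each Arg/Arg library in kidney and overlaps between genotypes in F4/80+ preparations.

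The sample types were compared to ask which of these genes differed between F4/80+ preparations and whole kidney. Hk1, Pfkl and Vegfa were lower in F4/80+ preparations, and Pfkp, Ldha, Ldhb and Epas1 were higher, by edgeR's quasi-likelihood test at a Benjamini-Hochberg adjusted p under 0.05. Thus 4 of the 10 genes were called higher, where 26.5% of all 13578 genes tested were, and 3 lower, where 37.3% were. At an unadjusted p under 0.05, 8 of the 10 passed, where 67.3% of all genes did. As each library was left out in turn, 6 to 8 of the 10 were called. The median log2 fold change of F4/80+ over kidney was -0.05 over the 10 genes and -0.13 over all genes tested. The sample types came from separate preparations and separately made tables, so a difference between tissue and cells cannot be told apart from one of handling or counting. The scaling moved the whole contrast: the median of all genes was -0.01 with TMM factors, and the share of called genes that were higher was 50.3% against 41.5%. No direction of the 10 genes changed under any scaling tried.

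Among the enzymes of the first steps, Hk1 was at 193, 202 and 201 CPM in Arg/Arg kidneys and 212, 197 and 197 CPM in Trp/Trp kidneys, against 119, 63.8 and 43.0 CPM in Arg/Arg and 142, 154 and 121 CPM in Trp/Trp F4/80+ preparations. Each F4/80+ library was below each kidney. The log2 fold change was -0.97 ± 0.19 (SE; adjusted p = 0.00048, edgeR). Pfkl, whose enzyme commits glucose to glycolysis, was at 90.3, 89.3 and 89.0 CPM in Arg/Arg and 93.0, 91.6 and 81.5 CPM in Trp/Trp kidneys, against 44.3, 52.2 and 30.8 CPM and 70.8, 56.7 and 57.0 CPM in F4/80+ preparations. It did not overlap either, with a log2 fold change of -0.80 ± 0.12 (adjusted p = 6.9e-05, edgeR). Pfkp went the other way, from 78.7 ± 6.56 CPM in kidney to 124 ± 49.3 CPM in F4/80+ preparations (SD, n = 6). Its log2 fold change was 0.60 ± 0.19 (adjusted p = 0.0124, edgeR). Pfkp was at 147, 68.5 and 62.0 CPM in Arg/Arg F4/80+ preparations, so replicates 2 and 3 were below every kidney and replicate 1 above them. Without Arg/Arg F4/80+ replicate 1 the log2 fold change was 0.35, and the exact permutation test over libraries gave an adjusted p of 0.0938. Hk2 was at 0.836 to 4.22 CPM in kidney and 0 to 1.84 CPM in F4/80+ preparations, and was not called (adjusted p = 0.115, edgeR). It was called lower without Arg/Arg F4/80+ replicate 1 (adjusted p = 0.0018, edgeR), where both remaining Arg/Arg libraries are at 0 and no fold is given, and with limma voom and quality weights (adjusted p = 0.0283). In Arg/Arg F4/80+ replicates 2 and 3 its count was 0, which at 3 counts allows levels up to 0.379 and 0.294 CPM, for counting error only.

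At the end of the pathway, Pkm was at 395 ± 27.0 CPM in kidney and 316 ± 123 CPM in F4/80+ preparations and was not called (log2 fold change -0.38 ± 0.18, adjusted p = 0.0776, edgeR). Pkm was called lower without Arg/Arg F4/80+ replicate 1, where its log2 fold change was -0.63 with an adjusted p of 9.8e-05. Ldha was at 632, 606 and 641 CPM in Arg/Arg and 591, 619 and 629 CPM in Trp/Trp kidneys. In F4/80+ preparations it was at 737, 947 and 889 CPM in Arg/Arg and 1109, 600 and 810 CPM in Trp/Trp, so all but Trp/Trp replicate 2 were above every kidney. The log2 fold change of Ldha was 0.45 ± 0.14 (adjusted p = 0.00981, edgeR). Ldhb, at 1418 ± 37.8 CPM in kidney and 1741 ± 322 CPM in F4/80+ preparations, was higher by a log2 fold change of 0.29 ± 0.11 (adjusted p = 0.0378, edgeR). The call of Ldhb was lost in 10 of the 12 fits that left out 1 library, with adjusted p of 0.0513 to 0.0843.

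Of the hypoxia factors, Epas1 was at 162, 202 and 175 CPM in Arg/Arg and 221, 197 and 189 CPM in Trp/Trp kidneys. In F4/80+ preparations it was at 278, 185 and 184 CPM in Arg/Arg and 270, 323 and 284 CPM in Trp/Trp. The 2 low Arg/Arg libraries lay within the kidney range and the other 4 above it. The log2 fold change was 0.40 ± 0.12 (adjusted p = 0.0109, edgeR), and the exact permutation test gave an adjusted p of 0.0655. Hif1a was at 93.3 ± 7.21 CPM in kidney and 124 ± 42.9 CPM in F4/80+ preparations (SD, n = 6) and was not called (log2 fold change 0.39 ± 0.17, adjusted p = 0.0584, edgeR). With TMM factors Hif1a was called, at a log2 fold change of 0.51 and an adjusted p of 0.0103. Vegfa was at 317, 304 and 321 CPM in Arg/Arg and 311, 330 and 339 CPM in Trp/Trp kidneys, and at 238, 211 and 199 CPM and 246, 234 and 184 CPM in F4/80+ preparations. All F4/80+ libraries were below all kidneys, with a log2 fold change of -0.55 ± 0.10 (adjusted p = 0.00024, edgeR). Hk1, Pfkl and Vegfa, 3 of the 10 genes, were thus lower with no overlap, where 27.0% of all genes tested were, and 0 of the 10 were higher with no overlap, where 15.2% were. Podocyte markers, whose cells are a known source of Vegfa, summed to 364 to 560 CPM in kidney and 106 to 228 CPM in F4/80+ preparations (4 of 4 genes listed in each). Endothelial markers summed to 427 to 563 CPM and 149 to 258 CPM (7 of 7). Their part in these differences was not tested.

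**Figure D3:**
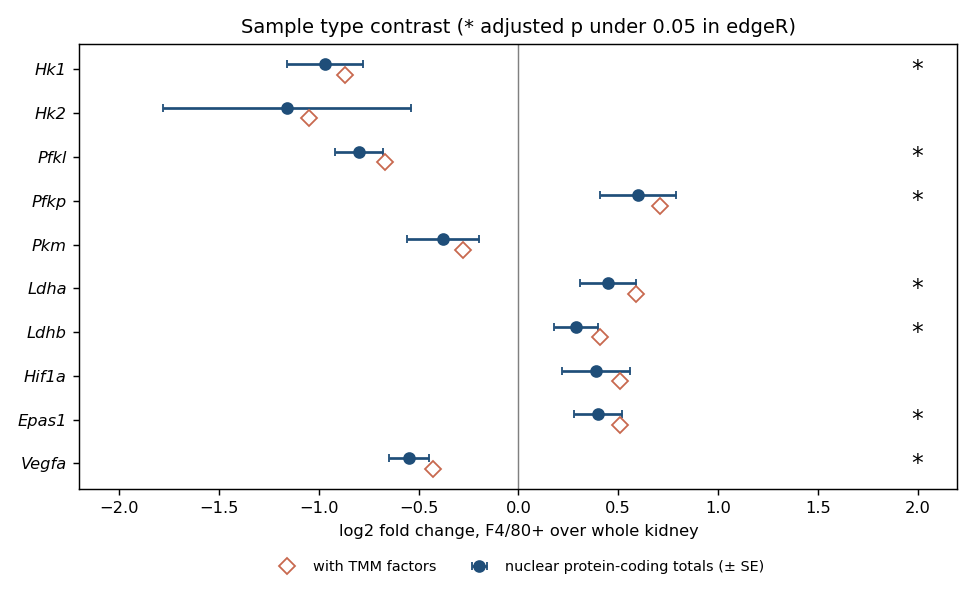
Log2 fold change of F4/80+ preparations over whole kidney for the 10 genes, with filled circles and SE bars from the edgeR fit scaled by nuclear protein-coding totals and open diamonds from the same fit with TMM factors. Stars mark the 7 genes with an adjusted p under 0.05 in the first fit, and every diamond lies to the right of its circle and on the same side of 0.

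Other genes of glycolysis were called in both directions. Of the 17 other enzymes listed, 15 were tested, 3 (20.0%) were called higher in F4/80+ preparations, where 26.5% of all genes were, and 3 (20.0%) lower, where 37.3% were, with a median log2 fold change of -0.07. Gapdh, a middle enzyme of the pathway, was at 1508 ± 44.3 CPM in kidney and 3149 ± 661 CPM in F4/80+ preparations (SD, n = 6; log2 fold change 1.06 ± 0.14, adjusted p = 2.0e-05, edgeR). The phosphoglycerate mutases parted: Pgam2, the muscle form, was higher by 1.96 ± 0.19 and Pgam1, the broadly expressed form, lower by a log2 fold change of -1.06 ± 0.10 (adjusted p = 1.1e-06 and 6.8e-07, edgeR). Hkdc1, a further hexokinase, was higher (0.91 ± 0.22), and the triose phosphate isomerase Tpi1 was lower (-0.60 ± 0.12). Pklr, the pyruvate kinase of liver and red cells, was lower at 5.28 ± 1.49 against 24.5 ± 1.86 CPM (log2 fold change -2.21 ± 0.17, adjusted p = 1.7e-07, edgeR).

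Of the 15 regulators of glycolysis and of pyruvate entry into mitochondria, 3 (20.0%) were called higher and 3 (20.0%) lower, against 26.5% and 37.3% of all genes, with a median of 0.03. Pfkfb3, which makes the fructose bisphosphate that activates phosphofructokinase, was at 25.2 ± 2.26 CPM in kidney and 89.3 ± 35.1 CPM in F4/80+ preparations (log2 fold change 1.77 ± 0.19, adjusted p = 3.6e-06, edgeR). Pdk3, a kinase that switches off pyruvate dehydrogenase, was higher by 0.72 ± 0.12, and its relative Pdk2 lower, at -0.91 ± 0.16. Pfkfb2 was higher by 0.54 ± 0.19, a call that was lost in 4 of the 19 alternatives. Tigar, which opposes Pfkfb3, was lower (-0.95 ± 0.14), as was Pdha1, a subunit of pyruvate dehydrogenase (-0.85 ± 0.11).

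Of the 12 partners and regulators of the HIF subunits, 0 were called higher, where 26.5% of all genes were, and 7 (58.3%) lower, where 37.3% were, with a median log2 fold change of -0.37 against -0.13 over all genes. With TMM factors 1 was called higher and 5 lower. The oxygen-sensing hydroxylases Egln2 (-1.16 ± 0.14, adjusted p = 7.4e-06, edgeR) and Egln3 (-1.57 ± 0.21, adjusted p = 1.9e-05, edgeR) were lower. So were Hif1an, the asparagine hydroxylase that blocks HIF activity (66.5 ± 4.18 CPM in kidney and 30.2 ± 5.41 CPM in F4/80+ preparations, adjusted p = 1.6e-06, edgeR), and Vhl, which targets HIF for degradation (24.2 ± 1.36 and 12.4 ± 2.96 CPM, adjusted p = 5.9e-05, edgeR). Of these 4, each kept its call in all 19 alternatives.

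Of 23 further HIF target genes listed, 22 were tested, 7 (31.8%) were called higher and 5 (22.7%) lower, against 26.5% and 37.3% of all genes, with a median of 0.07. Slc2a1, the glucose transporter GLUT1, was at 58.3 ± 2.92 CPM in kidney and 146 ± 45.5 CPM in F4/80+ preparations (log2 fold change 1.27 ± 0.12, adjusted p = 7.1e-07, edgeR). Bhlhe40, a transcriptional repressor also tied to the circadian clock, was at 114 ± 23.2 and 672 ± 105 CPM (2.55 ± 0.15, adjusted p = 2.2e-08, edgeR). Ankrd37 and the transferrin receptor gene Tfrc were higher by 1.46 ± 0.26 and 1.04 ± 0.24. In the other direction, Ndrg1 was at 3129 ± 243 CPM in kidney and 1478 ± 352 CPM in F4/80+ preparations, and Ddit4, an inhibitor of mTORC1, at 57.4 ± 16.7 and 10.7 ± 5.95 CPM (log2 fold change -1.11 ± 0.11 and -2.48 ± 0.29, adjusted p = 1.8e-06 and 7.1e-06, edgeR). The collagen prolyl hydroxylase genes P4ha1 (-0.56 ± 0.12) and P4ha2 (-1.22 ± 0.14) were lower too. Of the 9 ligands and receptors of the VEGF family, 4 (44.4%) were called lower and 1 (11.1%) higher, against 37.3% and 26.5% of all genes. The receptors Flt1 (-1.73 ± 0.13), Kdr (-1.12 ± 0.33), Flt4 (-2.45 ± 0.16) and Nrp2 (-3.11 ± 0.24) were lower, beside the endothelial sums given above. The ligand Vegfc was higher (0.93 ± 0.30, adjusted p = 0.0148, edgeR), with an adjusted p of 0.0506 without Trp/Trp F4/80+ replicate 2.

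The genotypes were compared in each sample type to ask whether the Trp allele went with a different level of any of these genes under angiotensin II. In whole kidney, 0 of the 10 genes were called, where 0% of all 14464 genes tested were (edgeR). DESeq2 called 15 of 15357 genes. At an unadjusted p under 0.05, 1 of the 10 passed, where 5.71% of all genes did. The median log2 fold change of Trp/Trp over Arg/Arg was -0.00 over the 10 genes and 0.00 over all. Hif1a was the gene that passed: it was at 100, 99.0 and 95.4 CPM in Arg/Arg and 92.5, 92.7 and 80.2 CPM in Trp/Trp kidneys. Each Trp/Trp kidney was below each Arg/Arg kidney, which held for 1 of the 10 genes and for 3.67% of all genes tested, and 0 of the 10 were higher without overlap, where 6.59% were. The log2 fold change of Hif1a was -0.17 ± 0.06 (unadjusted p = 0.0252, adjusted p = 0.843, edgeR), and the authors' deposited table gave -0.17 with an adjusted p of 0.943. Macrophage markers (12 of 12 listed) also differed between these kidneys, with sums of 155, 153 and 140 CPM in Arg/Arg and 254, 174 and 215 CPM in Trp/Trp, which did not overlap. Of the 12, 0 were called and 9 had an unadjusted p under 0.05, and all 12 log2 fold changes were positive, with a median of 0.57. Other marker lists moved too. An unadjusted p under 0.05 (edgeR) was found for 4 of 4 adipocyte, 3 of 5 lymphocyte and 2 of 5 fibroblast markers tested. Their median log2 fold changes were 1.69, 1.07 and 0.33, and that of erythroid markers was -0.56. The medians of the remaining lists lay between -0.2 and 0.11. The part of any of these cell types in the Hif1a difference was not tested. Epas1 was at 180 ± 20.4 CPM in Arg/Arg and 202 ± 16.6 CPM in Trp/Trp kidneys (SD, n = 3; log2 fold change 0.15 ± 0.09, adjusted p = 0.847, edgeR), with overlapping libraries. The Epas1 share of the 2 HIF subunits was 63.1, 68.3 and 65.9% in Arg/Arg and 71.5, 69.1 and 71.3% in Trp/Trp kidneys, so the genotypes did not overlap in this untested share. In F4/80+ preparations it was 69.0, 73.1 and 64.2% in Arg/Arg and 75.8, 64.6 and 65.6% in Trp/Trp, with overlap. The other shares given above overlapped between genotypes in both sample types. How often such a share separates the genotypes among other genes was not examined.

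The glycolytic genes of kidney were close between genotypes. Hk1, Pfkl, Pfkp, Pkm, Ldha and Ldhb had log2 fold changes between -0.05 and 0.03 with SE of 0.05 to 0.08, and adjusted p of 0.933 to 0.993 (edgeR). Vegfa, at 314 ± 9.11 CPM in Arg/Arg and 327 ± 14.4 CPM in Trp/Trp, had 0.04 ± 0.06. Hk2 was at 1.47, 1.40 and 0.836 CPM in Arg/Arg and 4.22, 1.39 and 1.52 CPM in Trp/Trp kidneys. Trp/Trp replicate 1, the kidney with the high adipocyte and fibroblast sums, was the 1 high library. The log2 fold change of Hk2 was 0.92 ± 0.43 (adjusted p = 0.843, edgeR) and 0.21 to 1.21 as each library was left out.

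In F4/80+ preparations 0 of the 10 genes were called between genotypes, where 0% of 15225 genes tested were (edgeR). DESeq2 called 14 of the 6183 genes to which it gave an adjusted p. The 15225 genes were not all nuclear protein-coding, as the 10 are, and a fit limited to such genes tested 12673. The shares of all genes given next are over the 15225. At an unadjusted p under 0.05, 3 of the 10 passed, where 8.04% of all genes did. The log2 fold change of Trp/Trp over Arg/Arg was positive for 8 of the 10, with a median of 0.38 against 0.01 over all genes. Hk2 is among the 8 and rests on few counts: 12, 0 and 0 in Arg/Arg and 11, 6 and 14 in Trp/Trp preparations. Overlap was judged in CPM, which is scaled by nuclear protein-coding totals and not by the TMM factors of the fit. In CPM Hk1, Pfkl, Pkm and Ldhb, 4 of the 10, were higher in each Trp/Trp than in each Arg/Arg library, where 7.19% of all genes were. Of the 10, 0 were lower without overlap, where 3.33% of all genes were. With nuclear protein-coding totals as the scale, the median was 0.48 over the 9 members that passed the filter there, all but Hk2, and 0.15 over all genes.

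Hk1 was at 119, 63.8 and 43.0 CPM in Arg/Arg and 142, 154 and 121 CPM in Trp/Trp preparations. Arg/Arg replicates 2 and 3 were low and replicate 1 lay just under the lowest Trp/Trp library. Its log2 fold change was 0.80 ± 0.28 (unadjusted p = 0.0165, adjusted p = 0.605, edgeR). Pkm was at 357, 180 and 142 CPM in Arg/Arg and 416, 416 and 385 CPM in Trp/Trp preparations. The order of libraries was like that of Hk1, with a log2 fold change of 0.76 ± 0.28 (unadjusted p = 0.0198, adjusted p = 0.605, edgeR). Pfkp was at 147, 68.5 and 62.0 CPM in Arg/Arg and 142, 190 and 133 CPM in Trp/Trp preparations. Arg/Arg replicate 1 lay within the Trp/Trp range, and the log2 fold change was 0.66 ± 0.27 (unadjusted p = 0.0333, adjusted p = 0.606, edgeR). The authors' deposited table gave log2 fold changes of 0.76, 0.73 and 0.62 and adjusted p of 0.249, 0.247 and 0.353 for Hk1, Pkm and Pfkp. Without Arg/Arg replicate 1 the log2 fold changes were 1.13, 1.09 and 1.00, with adjusted p of 0.0877, 0.0877 and 0.09 (edgeR).

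The lactate dehydrogenase subunits showed no shared direction. Ldha was at 737, 947 and 889 CPM in Arg/Arg and 1109, 600 and 810 CPM in Trp/Trp preparations, with the highest and the lowest library both in Trp/Trp. Its log2 fold change was -0.16 ± 0.32 (adjusted p = 0.966, edgeR). Ldhb was at 1690, 1660 and 1258 CPM in Arg/Arg and 2245, 1711 and 1882 CPM in Trp/Trp preparations, a log2 fold change of 0.22 ± 0.27 (adjusted p = 0.908, edgeR). The groups did not overlap, though the highest Arg/Arg and the lowest Trp/Trp library lay close together. Pfkl had a log2 fold change of 0.41 ± 0.26 and Epas1 of 0.32 ± 0.21 (adjusted p = 0.708 and 0.735, edgeR). Hif1a was at 132, 71.6 and 108 CPM in Arg/Arg and 90.6, 187 and 157 CPM in Trp/Trp preparations (0.35 ± 0.27, adjusted p = 0.801, edgeR), with overlap. Vegfa, at 216 ± 20.1 CPM in Arg/Arg and 221 ± 32.6 CPM in Trp/Trp preparations (SD, n = 3), had a log2 fold change of -0.09 ± 0.22 (adjusted p = 0.973, edgeR), which was 0.03 with nuclear protein-coding totals.

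**Figure D4:**
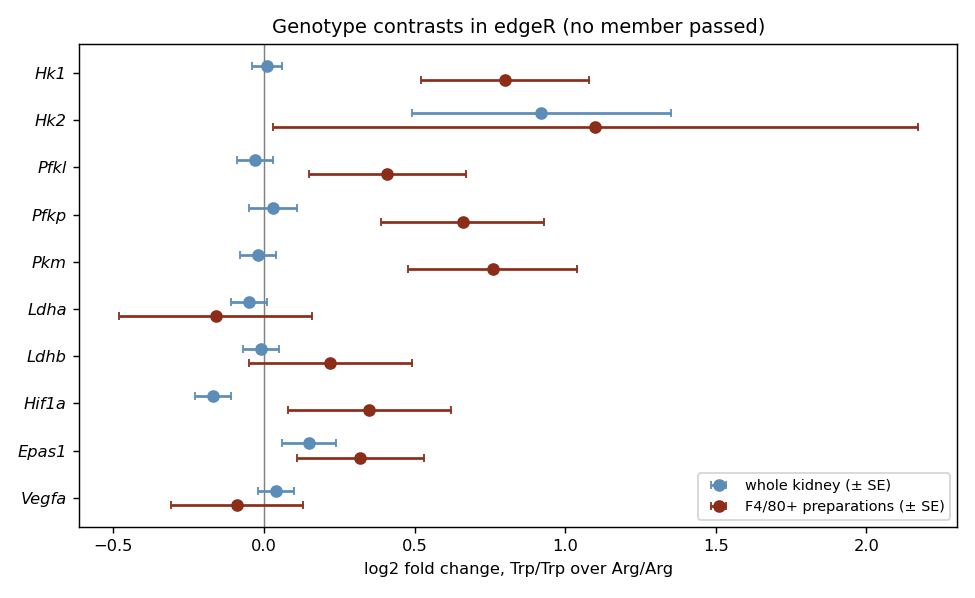
Log2 fold change of Trp/Trp over Arg/Arg with SE for the 10 genes, in whole kidney and in F4/80+ preparations, from the edgeR fit of each table. None of the 10 had an adjusted p under 0.05 in either sample type, and the bars are wider for each gene in F4/80+ preparations.

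Levels of several of these genes ran with the cell type markers of the F4/80+ libraries. The proximal tubule markers (12 of 12 listed) summed to 23215, 47726 and 42829 CPM in Arg/Arg and 27856, 15172 and 24810 CPM in Trp/Trp preparations. The distal tubule and collecting duct markers (8 of 8) summed to 9077, 3402 and 3124 CPM and 7922, 10255 and 6969 CPM. The thick limb markers (5 of 5) summed to 5720, 2739 and 2879 CPM and 5403, 11090 and 5183 CPM. The macrophage markers (11 of 12, with no row for Fcgr1) summed to 147, 49.0 and 40.5 CPM and 123, 186 and 211 CPM. Arg/Arg replicates 2 and 3 were thus the highest for proximal tubule and the lowest for distal tubule, thick limb and macrophage markers. The same 2 libraries were the 2 lowest for Hk1, Hk2, Pfkp, Pkm, Ldhb and Epas1, 6 of the 10 genes. They were the 2 lowest for 27.4% of all genes tested, which were not all nuclear protein-coding. The part of tubule or macrophage RNA in the genotype differences was not tested.

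**Figure D5:**
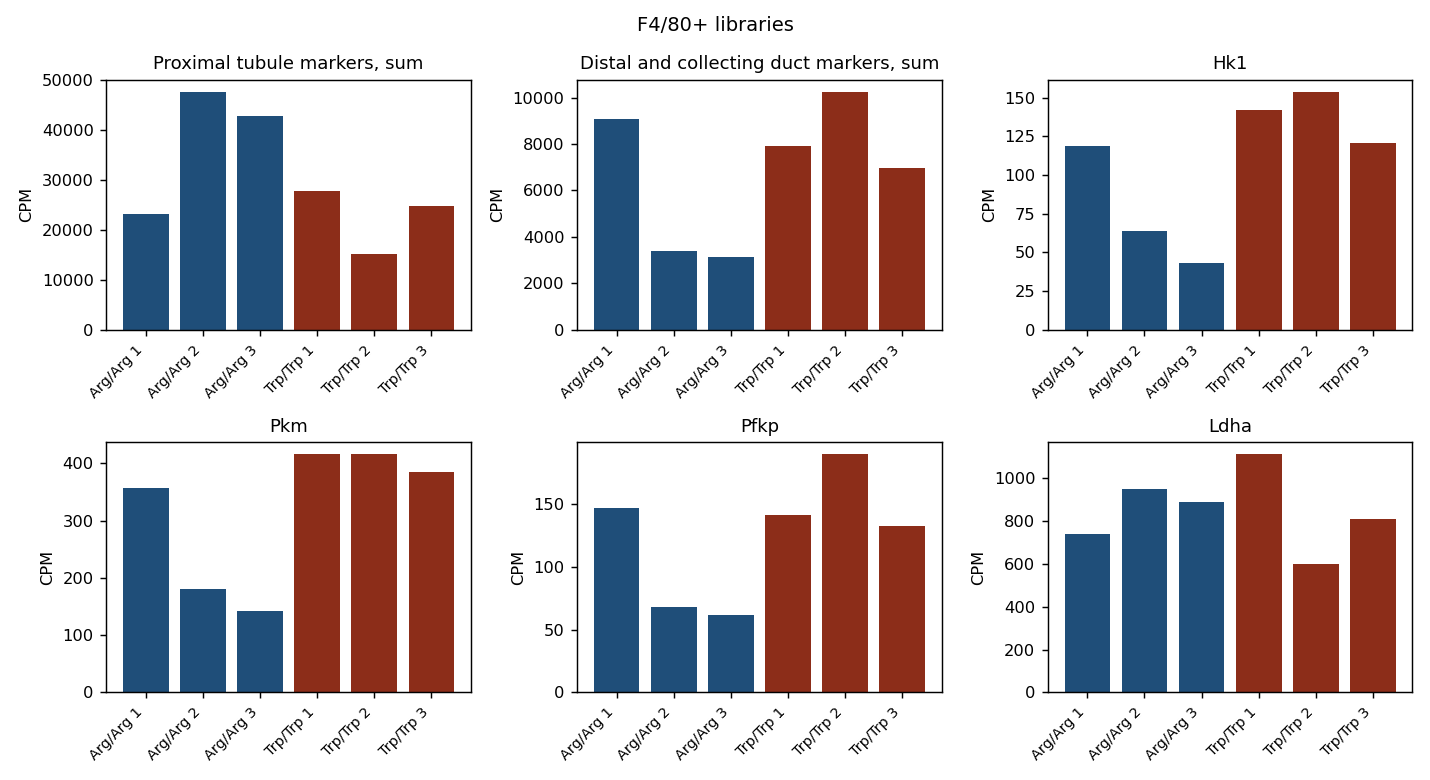
Summed CPM of the proximal tubule and of the distal tubule and collecting duct markers, and CPM of Hk1, Pkm, Pfkp and Ldha, as 1 bar for each of the 6 F4/80+ libraries. Arg/Arg replicates 2 and 3 are the highest for the proximal tubule sum and the lowest for Hk1, Pkm, Pfkp and the distal sum, and Ldha has no such order.

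Whether the genotype difference itself differed between sample types was tested as an interaction over all 12 libraries. It was called for 0 of the 10 genes, where 0% of 13578 genes were in edgeR (7 of 13728 with DESeq2). The unadjusted p was under 0.05 for 3 of the 10, where it was for 6.36% of all genes (edgeR). Those 3 were Hk1 at 0.86 ± 0.37, Pkm at 0.84 ± 0.36 and Pfkl at 0.55 ± 0.24 on the log2 scale, F4/80+ minus kidney, each with an adjusted p of 0.769 (edgeR). The median over all genes was 0.14. Without Arg/Arg F4/80+ replicate 1, the interaction was called for 846 of 13701 genes, 701 of them positive, and the median over all genes was 0.24. Those called held 3 of the 10 members: Hk1 (1.36, adjusted p = 0.0105), Pkm (1.33, adjusted p = 0.0105) and Pfkp (1.20, adjusted p = 0.0142; edgeR). The Arg/Arg F4/80+ libraries left in that fit were replicates 2 and 3, which had the highest proximal tubule sums. No other library, left out alone, gave a call. With limma voom and quality weights, which lower the weight of libraries that scatter, the interaction was called for 314 of 13578 genes. Those held 3 of the 10 members, Hk1, Pkm and Hif1a. Vegfa (-0.02 ± 0.19) and Ldha (-0.00 ± 0.27) had interactions near 0.

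The other pathway genes gave 0 calls between genotypes in edgeR, in kidney (16 of 17 other enzymes, all 15 regulators, all 12 HIF partners, 22 of 23 targets and all 9 VEGF genes tested) and in F4/80+ preparations (15, 15, 12, 21 and 8 tested). In F4/80+ preparations the median log2 fold changes of the enzymes, regulators, HIF partners, HIF targets and VEGF genes were, in this order, 0.12, 0.09, 0.04, 0.09 and 0.34, and those in kidney 0.00, -0.02, -0.03, -0.02 and 0.11. Among the HIF targets, Slc2a1 was at 139, 100 and 84.3 CPM in Arg/Arg and 182, 194 and 176 CPM in Trp/Trp preparations, with no overlap (log2 fold change 0.66 ± 0.21, unadjusted p = 0.0103, adjusted p = 0.605, edgeR). Car9, a carbonic anhydrase at the cell surface, went the other way at 10.5, 17.8 and 11.3 CPM in Arg/Arg and 8.17, 4.58 and 4.46 CPM in Trp/Trp preparations, also with no overlap. Its log2 fold change was -1.33 ± 0.39 (unadjusted p = 0.00526, adjusted p = 0.605, edgeR). The genes of smallest p in the other lists were Aldoc (0.65 ± 0.27) and Pgam2 (0.69 ± 0.30), Pfkfb3 (0.69 ± 0.28) and Pdp2 (-0.61 ± 0.29), Arnt2 (0.39 ± 0.20) and Hif3a (-1.05 ± 0.66), and Flt4 (0.77 ± 0.39) and Vegfd (0.54 ± 0.29), with adjusted p of 0.605 to 0.709 (edgeR). In kidney those reported are Eno2 (0.61 ± 0.25) and Hkdc1 (0.31 ± 0.16), Pdp2 (0.19 ± 0.12) and Pdha1 (-0.09 ± 0.05), Arnt2 (-0.09 ± 0.08) and Hif1an (-0.09 ± 0.07), Ndrg1 (-0.16 ± 0.08), and Nrp1 (0.16 ± 0.07) and Pgf (-0.55 ± 0.35), with adjusted p of 0.843 to 0.874 (edgeR).

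The genes whose level ran most like each member were found by Pearson's r of log2 CPM over the 12 libraries, after standardising within each sample type, among 8709 genes. The points share libraries and, in F4/80+ preparations, the marker differences given above, so r is a description. Hk1 ran closest with Wfdc2 (r = 0.99) and Flna (r = 0.98), and Pfkp with Bcor (r = 0.99) and Ctnna1 (r = 0.98). Pkm ran with Atp4a and Arl4c (r = 0.97 each), Epas1 with Arrb1 (r = 0.98) and Foxj2 (r = 0.97), and Hif1a with Wdr37 (r = 0.97) and Slc35f5 (r = 0.96). Ldhb ran with Mdh2 (r = 0.95), the mitochondrial malate dehydrogenase, and Ilvbl (r = 0.94), and Ldha with Bend5 and Naxd (r = 0.94 each). Pfkl ran with Mapk8ip1 and Git1 (r = 0.92 each), and Vegfa, with the lowest r among the members, with Pnpla7 (r = 0.89) and Rnf215 (r = 0.87). Hk2 was under the minimum level set for the genes compared, with a count of 0 in 2 libraries, and its highest r, with Fbxw7 (r = 0.95) and Litaf (r = 0.93), rests on few counts.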

How the data were processed

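Polyadenylated RNA of 12 libraries was analysed from the authors' 2 tables. Per the file headers, each of the 2 deposited tables gives a whole-number raw count for a gene in a library, beside the authors' columns in DESeq2's form: a signal column (mean of counts divided by size factors), a log2 fold change, its ratio (fold), score columns (SE and Wald statistic) and a p-value with its adjusted p-value. Where the deposited sign ran the other way (kidney), it was changed so that positive means higher in Trp/Trp. The submitters' processing notes name STAR, DRAGEN, DESeq2 and mm10, with no versions or roles. The authors' annotation release is not given in the sources used here. GENCODE exons of mm10 gave lengths, for 15356 of 15361 kidney and 18124 of 18145 F4/80+ identifiers. The members and lists were chosen with earlier results of these data known.

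Genes were kept by filterByExpr (minimum count 10, total 15) and compared with the edgeR quasi-likelihood test (R 4.3.3, edgeR 4.0.16, limma 3.58.1), with TMM within a table and nuclear protein-coding totals across sample types, over the 13733 genes that both tables list, before the filter. Benjamini-Hochberg adjustment was over all genes tested, threshold 0.05. The SE is the absolute log2 fold change over the square root of F and restates the test. Fits were also run on simulated counts with 1 common dispersion for all genes and no difference in cell content between libraries. That run cannot show how the fits perform on these libraries, and nothing is drawn from it here. Alternatives were other scalings, no filter, DESeq2 1.42.0, voom, a permutation test, the replicate block and leaving out each library. Named genes were the members, up to 4 called genes per list and direction with the smallest adjusted p, or the 2 smallest p where none was called; 1 gene that this rule named is not reported here. Plots used Python 3.11.15 and matplotlib 3.10.9. Libraries are labelled biological replicates, but whether each came from its own animal is not stated. The p-values set a difference between groups against the spread between these libraries.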

Additional observations from a re-analysis of the deposited data

Results flagged for a closer look

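Over 20 sets of 6 libraries, each gene in each sample type, 2 had a library far from the others by Dixon's criterion, where chance gives about 1 in 20. Hk2 in Trp/Trp kidney replicate 1 was at 4.22 CPM, above the other 5 kidneys. Pfkl in Trp/Trp kidney replicate 3 was at 81.5 CPM, below the other 5.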

How the results depend on the processing

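No alternative run called a member between genotypes in kidney or F4/80+ preparations. In F4/80+ preparations Hk2 had no adjusted p with DESeq2 and was filtered out with nuclear protein-coding totals. Over all genes with an adjusted p, DESeq2 called 15 of 15357 in kidney and 14 of 6183 in F4/80+ preparations. For the interaction, voom called 3 of the 10 members and 314 of 13578 genes, and DESeq2 called 7 genes. Leaving out 1 library gave 0 to 3 of the 10 members and 0 to 846 genes, the highest being 846 of 13701 without Arg/Arg F4/80+ replicate 1. The cause of these differences was not tested. With nuclear protein-coding totals, the kidney log2 fold changes of Pkm (0.00) and Ldhb (0.01) and the F4/80+ one of Vegfa (0.03) changed sign. Leaving out 1 library, the kidney genotype values ran from -0.02 to 0.02 for Hk1, -0.03 to 0.02 for Ldhb, -0.06 to 0.01 for Pfkl, -0.04 to 0.07 for Pfkp and -0.08 to 0.02 for Pkm. Those in F4/80+ preparations ran from -0.49 to 0.07 for Ldha and -0.24 to 0.00 for Vegfa, and the interactions from -0.48 to 6.78 for Hk2, -0.25 to 0.19 for Ldha and -0.11 to 0.09 for Vegfa. Between sample types, 120 values of single members under an alternative kept a call, 13 lost it, 11 gained one and 46 had none in either fit, and no direction changed. Counts not divided by length gave shares of 67.1% in F4/80+ preparations and 69.6% in kidney for Ldhb, 36.0% in kidney for Pfkl, 31.6% and 32.2% for Pfkm, and 47.3% and 31.8% for Pfkp, which follows from the exon lengths. Deviations from the group mean were correlated between libraries of the 2 genotypes. Same-numbered kidneys had correlations of -0.08, -0.02 and -0.01, and same-numbered F4/80+ preparations -0.32, -0.49 and 0.18. Those of different number had -0.13 to 0.11 in kidney and -0.14 to 0.49 in F4/80+ preparations. Deviations within so small a group are tied to each other, so these values cannot show whether the numbers stand for pairs. With the replicate block, 0 genes were called between genotypes or in the interaction, and between sample types Pkm gained its call (-0.41, adjusted p = 0.0452) and Ldhb lost it (0.28, adjusted p = 0.0632; edgeR). The 6879337 to 11143970 nuclear protein-coding counts of F4/80+ libraries limit Hk2, the lowest gene.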
